A study of Mus musculus with 8 samples.

Results

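*Sox* genes other than *Sox2* were followed in germ cell-like cells made in culture and in germ cells of the embryo. The 10 genes were *Sox3*, *Sox4*, *Sox9*, *Sox11*, *Sox12*, *Sox13*, *Sox15*, *Sox17*, *Sox18* and *Sox21*, chosen by name from the 21950 genes of a table of read counts, and all 10 had a row. The counts came from 8 pools of sorted cells, 4 of d6PGCLCs and 4 of PGCs from E12.5 gonads, and the comparison asked how far the cultured cells differ from germ cells of the embryo. PGCs are the precursors of oocytes and sperm, and PGCLCs are their counterparts differentiated from pluripotent stem cells. The d6PGCLCs came from a female mouse BVSC-iPSC line, that is, reprogrammed tail tip fibroblasts that carry Blimp1-Venus and Stella-ECFP transgenes and were collected on day 8 of culture, day 6 of the PGCLC step. The methods of the study allow either the reporters or SSEA1 and integrin β3 as the sorting gate for such cells, and do not say which served here. The PGCs came from gonads of female C57BL/6J fetuses at E12.5 and were sorted for SSEA1 and integrin β3. The d6PGCLCs thus represent a single line, and the groups differ in origin and stage, and perhaps in the gate, at the same time, which cannot be told apart here.

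SOX proteins are transcription factors that bind and bend DNA through an HMG box, a domain they share with SRY and with the TCF/LEF factors of Wnt signalling. They act together with partner factors, such as POU proteins, and are sorted into groups by the sequence of the box. SOX2 of group B1 works with OCT4 in pluripotent cells and is expressed in mouse germ cells. SOX9 directs Sertoli cell fate in the testis, SOX17 is a regulator of endoderm and, in human embryos, of the germ line, and the SoxC proteins act in progenitor and differentiating cells of many tissues.

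The HMG box was read from the longest GENCODE M21 transcript (GRCm38) of each gene that holds it in an open reading frame, as the stretch of coding sequence around a conserved motif of 18 bases, and was 237 bases long in each of the 9 genes compared. Of these positions, 83 held the same base in all 9. Shown 5′ to 3′ in the sense of the transcript are the boxes of *Sox15*, the gene that was higher in d6PGCLCs, of *Sox3*, with the largest fitted fall among the called genes, and of the SoxC genes *Sox4* and *Sox11*, whose likeness bears on the counting. Capitals mark the 18 bases of the motif.
Sox15: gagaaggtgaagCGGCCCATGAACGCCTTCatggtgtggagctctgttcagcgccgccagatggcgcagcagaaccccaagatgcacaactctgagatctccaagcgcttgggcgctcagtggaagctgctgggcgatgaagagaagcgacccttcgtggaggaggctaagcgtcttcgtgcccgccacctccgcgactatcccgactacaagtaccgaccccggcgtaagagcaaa
Sox3: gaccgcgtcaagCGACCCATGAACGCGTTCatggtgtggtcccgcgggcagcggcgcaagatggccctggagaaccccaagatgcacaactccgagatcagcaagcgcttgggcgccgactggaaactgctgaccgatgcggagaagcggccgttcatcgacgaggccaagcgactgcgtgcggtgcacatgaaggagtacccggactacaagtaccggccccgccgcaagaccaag
Sox4: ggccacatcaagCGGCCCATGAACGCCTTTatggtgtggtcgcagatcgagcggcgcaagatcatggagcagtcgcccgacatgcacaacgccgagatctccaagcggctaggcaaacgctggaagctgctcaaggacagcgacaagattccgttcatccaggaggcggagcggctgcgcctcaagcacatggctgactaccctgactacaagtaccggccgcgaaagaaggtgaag
Sox11: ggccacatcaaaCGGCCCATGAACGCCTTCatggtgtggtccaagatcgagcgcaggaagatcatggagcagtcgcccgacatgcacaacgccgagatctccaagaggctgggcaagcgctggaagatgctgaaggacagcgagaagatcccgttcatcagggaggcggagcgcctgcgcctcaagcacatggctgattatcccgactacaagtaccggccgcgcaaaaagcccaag
Each of these boxes lies within the coding part of a single exon. That of *Sox15* is on the plus strand of chromosome 11 (69655505 to 69655741), in exon 1 of 2. The others are on the minus strand, in genes with 1 exon, *Sox3* on chromosome X (60892771 to 60893007), *Sox4* on chromosome 13 (28952617 to 28952853) and *Sox11* on chromosome 12 (27342034 to 27342270). In *Sox9*, *Sox13*, *Sox17* and *Sox18* the box is interrupted by 1 intron.

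Among the 9 boxes compared, those of *Sox4* and *Sox11* were the most alike, with 89.5% identical bases, followed by *Sox3* and *Sox21* (88.2%) and the SoxF genes *Sox17* and *Sox18* (82.3%). The 34 pairs from different groups, with B1 and B2 taken apart, had between 57.4% and 88.2%, with a median of 66.65%. The box of *Sox15*, the SoxG gene, was nearest to those of *Sox3* and *Sox21* (76.8% each). *Sox13*, of group D, stood farthest from the rest (57.4% to 64.6%). The longest run of bases shared by the transcripts of any of these pairs was 48 bases, in *Sox4* and *Sox11*, while the reads had 100 bases.

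**Figure D1:**
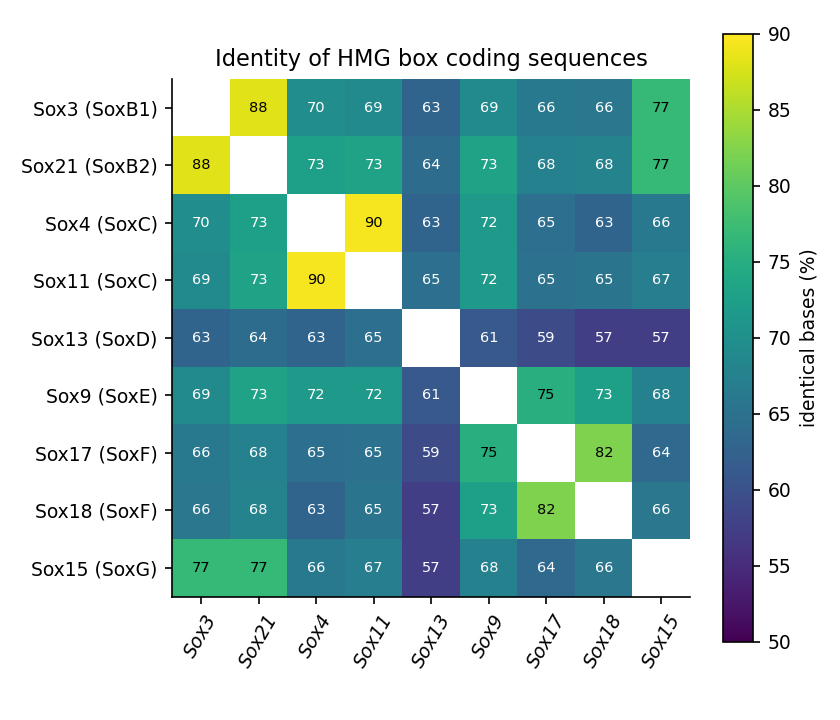
Percentage of identical bases between the HMG box coding sequences of 9 genes (237 bases each, compared without gaps), with the Sox group in brackets; the colour scale runs from 50 to 90%. *Sox4* and *Sox11* have the highest value among these, 89.5%, and the values of *Sox13*, 57.4% to 64.6%, are at the low end.

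The authors deposited counts of uniquely mapped reads per gene. The libraries held between 8054596 and 12024841 counted reads in d6PGCLCs and between 7991437 and 11166023 in E12.5 PGCs. Values are given as CPM, counts per 1000000 reads of the TMM-scaled library total, and 3 counts, used as the detection limit of a library, corresponded to between 0.249 and 0.383 CPM. Such limits and the counting intervals below cover counting error only. In both groups all 15 genes chosen as markers of PGC identity were counted, and the late genes *Dazl* and *Ddx4* were lower in d6PGCLCs (mean 37.7 against 1262 CPM and 35.5 against 760 CPM). A pair of PGC libraries stood apart. E12.5 PGC replicate 4 had 99 counts on Y-linked genes, although its gonads were labelled female, and the other 7 libraries had 0, with *Sry* at 0 in all 8. E12.5 PGC replicate 2 had 336 counts on blood and immune markers, mostly *Hbb-y*, against 19 to 48 in the other PGC libraries and 118 to 150 in the d6PGCLC libraries. Of this list, *Cd68* (467 against 89 counts summed over 4 libraries) and *Csf1r* (69 against 0) were called higher in d6PGCLCs, while the macrophage and leukocyte genes *Adgre1*, *C1qa*, *C1qb* and *Ptprc* had at most 3 counts in any library. Results that change without these libraries are given below with and without them.

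*Sox15* was 2.51-fold higher in d6PGCLCs than in E12.5 PGCs. In contrast, *Sox3*, *Sox11*, *Sox17* and *Sox21*, all with few reads, and the more abundant *Sox12* and *Sox4* were lower in d6PGCLCs. *Sox13*, *Sox9* and *Sox18* did not pass the test. With calls made at an adjusted p up to 0.05 (quasi-likelihood test of edgeR over all genes, Benjamini-Hochberg adjustment), 1 of 10 genes was thus higher in d6PGCLCs and 6 of 10 were lower. Over the whole table, which includes 4940 genes without a count, 16.1% of genes were called higher and 15.4% lower. When a log2 fold change of 2 or more in size was required as well, 3 genes were lower (*Sox3*, *Sox17* and *Sox21*), against 3.37% of all genes, and 0 were higher, against 3.24%. The latter count was also 0 at an unadjusted p of at most 0.05 and with DESeq2. The values of both groups did not overlap for 4 genes (*Sox3*, *Sox12*, *Sox15* and *Sox17*), against 30.2% of all genes, a share near that of the table. The median log2 fold change (d6PGCLC over E12.5 PGC) was -1.31 over the 10 genes and 0 over all genes, those without a count included. This median lies between *Sox11* and *Sox18*, and *Sox18* had at most 3 counts in every library. Of the 10 genes, 6 had fewer than 20 counts per library on average. Only 4 genes, *Sox4*, *Sox12*, *Sox13* and *Sox15*, had a mean of at least 100 counts. Their log2 fold changes were -0.42, -0.47, 0.13 and 1.33. Fewer cells with a transcript and less RNA per cell cannot be told apart in such pools.

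**Figure D2:**
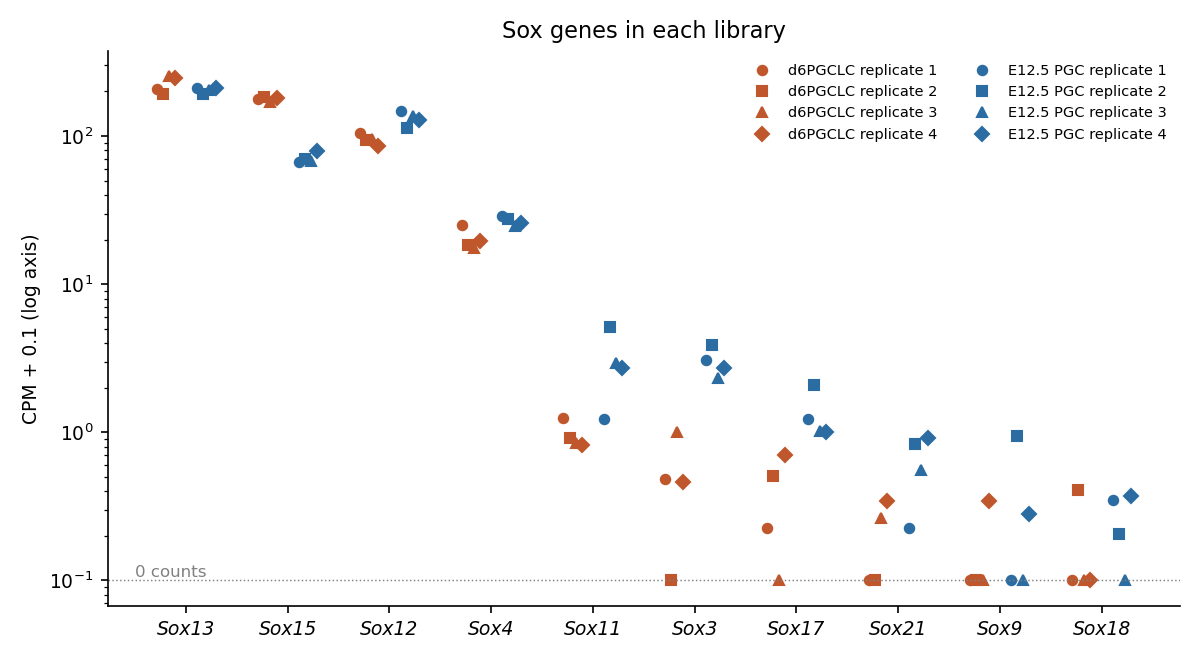
CPM of each gene in each of the 8 libraries, plus 0.1 so that a count of 0 can be drawn on the log axis; colours mark the groups and symbols the replicates. *Sox15* separates the groups upwards in d6PGCLCs, *Sox12*, *Sox3* and *Sox17* separate them in the other direction, and E12.5 PGC replicate 2 (squares) is the highest library for *Sox11*, *Sox3*, *Sox17* and *Sox9*.

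*Sox15* (Entrez 20670, chromosome 11, 69655037 to 69656727 in GRCm38) encodes the SoxG factor, which is present in pluripotent cells and in muscle progenitors. It had 177, 184, 169 and 181 CPM in d6PGCLC replicates 1 to 4, and 66.7, 69.7, 67.4 and 79.5 CPM in the PGC libraries. The lowest d6PGCLC library lay far above the highest PGC library. The log2 fold change was 1.33 (standard error, SE, 0.09; 95% interval 1.13 to 1.52, adjusted p = 3.66e-10, quasi-likelihood test). Fits that left out 1 library each gave 1.30 to 1.39, and the fit without PGC replicates 2 and 4 gave 1.41. An exact two-sided permutation test of the 8 libraries gave p = 0.0286, the smallest value that 4 against 4 allows. The same permutation test gave p = 0.0286 for *Sox3*, *Sox12* and *Sox17*, 0.0571 for *Sox4* and *Sox11*, and 0.0857 for *Sox21*. The last exon of *Sox15* overlaps that of *Mpdu1* on the opposite strand by 31 bases.

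*Sox13* (Entrez 20668, chromosome 1, 133382300 to 133424459) is the SoxD member, a factor without a transactivation domain of its own. It had 208, 192, 254 and 245 CPM in d6PGCLCs and 212, 192, 203 and 212 CPM in PGCs, so that d6PGCLC replicates 3 and 4 lay above all PGC libraries and replicates 1 and 2 lay within or at the edge of their range. The log2 fold change was 0.13 (95% interval -0.07 to 0.34, adjusted p = 0.364, quasi-likelihood test). The interval leaves room for a rise of up to 0.34 on the log2 scale and does not show that the levels were equal.

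The SoxC genes *Sox12*, *Sox4* and *Sox11* were all lower in d6PGCLCs, though at very different levels. *Sox12* (Entrez 20667, chromosome 2, 152393611 to 152398046) had 105, 94.6, 95.3 and 85.5 CPM in d6PGCLCs and 147, 114, 137 and 129 CPM in PGCs. Its groups did not overlap, with a log2 fold change of -0.47 (SE 0.10, adjusted p = 0.000859, quasi-likelihood test). Leaving out each library in turn moved this to between -0.53 and -0.41, and the call held in all 8 fits. *Sox4* (Entrez 20677, chromosome 13, 28948919 to 28953699), which is widely expressed in progenitor cells, had 25.0, 18.2, 17.5 and 19.4 CPM in d6PGCLCs and 28.7, 27.6, 24.4 and 26.0 CPM in PGCs. The groups met in d6PGCLC replicate 1, which lay above PGC replicate 3. The log2 fold change of *Sox4* was -0.42 (SE 0.15, adjusted p = 0.0328, quasi-likelihood test), and the call was lost without d6PGCLC replicate 2, 3 or 4 and without PGC replicate 1, 2 or 4 (adjusted p from 0.0631 to 0.104), as well as without PGC replicates 2 and 4 together (0.140). In these fits, which hold fewer libraries, the fold change lay between -0.43 and -0.36. *Sox4* is overlapped by the opposite-strand gene *Gm26735* over 2616 bases of exon, and the sources used here do not say whether counting used the strand, so its count may hold reads of both.

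*Sox11* (Entrez 20666, chromosome 12, 27334268 to 27342718), the SoxC gene best known from neural precursors, was counted little. It had 9, 8, 9 and 6 counts in d6PGCLCs (1.15, 0.814, 0.747 and 0.727 CPM) and 9, 48, 31 and 29 counts in PGCs (1.12, 5.05, 2.86 and 2.62 CPM). PGC replicate 1 lay within the d6PGCLC range and PGC replicate 2 lay highest. The log2 fold change was -1.77 (SE 0.42, adjusted p = 0.00164, quasi-likelihood test), and -1.39 without PGC replicate 2 (adjusted p = 0.0130). Without PGC replicates 2 and 4 together it was -1.25 and no longer called (adjusted p = 0.0598).

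*Sox3* and *Sox21*, both of group B, were lower in d6PGCLCs, *Sox21* with a call that several alternative fits lost. *Sox3* (Entrez 20675, chromosome X, 60891366 to 60893430) is the X-linked sister gene of *Sox2* in group B1 and is used in neural progenitors and in spermatogonia. It had 3, 0, 11 and 3 counts in d6PGCLCs (0.383, 0, 0.913 and 0.364 CPM), and 24, 36, 24 and 29 counts in PGCs (2.99, 3.79, 2.21 and 2.62 CPM). All PGC libraries lay above all d6PGCLC libraries. The log2 fold change was -2.69 (SE 0.53, adjusted p = 0.000146, quasi-likelihood test). It lay between -3.56, without d6PGCLC replicate 3, and -2.28, without d6PGCLC replicate 2, and remained called in all 8 fits and without PGC replicates 2 and 4 (-2.53, adjusted p = 0.00124). From the summed counts, 17 against 113, *Sox3* was 6.54 times as frequent in PGCs (95% counting interval 3.91 to 11.6). *Sox21* (Entrez 223227, chromosome 14, 118233233 to 118237030), a group B2 repressor that counters group B1 factors in the nervous system, had 0, 0, 2 and 2 counts in d6PGCLCs, all within the limit, and 1, 7, 5 and 9 in PGCs. The groups overlapped in PGC replicate 1. The summed counts of *Sox21*, 4 against 22, gave a ratio of 5.41 for PGCs over d6PGCLCs (95% counting interval 1.84 to 21.6). The call of *Sox21* (adjusted p = 0.0409, quasi-likelihood test) was lost without d6PGCLC replicate 1, 2 or 3 and without PGC replicate 2, 3 or 4 (adjusted p from 0.0553 to 0.132). Its log2 fold change, -2.25 with all libraries, lay between -2.63 and -1.87 in those fits. The call was also lost in DESeq2 (-2.39, adjusted p = 0.0687) and without PGC replicates 2 and 4 together (-1.46, adjusted p = 0.462). *Gm4675* overlaps *Sox21* on the opposite strand by 713 bases.

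Of the SoxF genes, which act in endoderm and in vessels, *Sox17* (Entrez 20671, chromosome 1, 4490928 to 4497426) was lower in d6PGCLCs. It had 1, 4, 0 and 5 counts in d6PGCLCs (0.128, 0.407, 0 and 0.606 CPM) and 9, 19, 10 and 10 in PGCs (1.12, 2.00, 0.922 and 0.903 CPM). The groups did not overlap, and PGC replicate 2 was again the highest library. The log2 fold change was -2.14 (SE 0.68, adjusted p = 0.0105, quasi-likelihood test), and ranged from -2.76, without d6PGCLC replicate 4, to -1.65, without d6PGCLC replicate 3 (adjusted p = 0.0365). It was also smaller than 2 in size without d6PGCLC replicate 1 (-1.95) and without PGC replicate 2 (-1.81, adjusted p = 0.0478), and the call was lost without PGC replicates 2 and 4 together (-1.87, adjusted p = 0.0749). The summed counts, 10 against 48, gave a ratio of 4.72 for PGCs over d6PGCLCs (95% counting interval 2.36 to 10.5). *Gm37587* lies opposite *Sox17* with 804 bases of shared exon. *Sox18* (Entrez 20672, chromosome 2, 181669837 to 181671640), a regulator of lymphatic and blood endothelium, had 0, 3, 0 and 0 counts in d6PGCLCs and 2, 1, 0 and 3 in PGCs. Every library was within the limit of 3 counts, and no fold is given.

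*Sox9* (Entrez 20682, chromosome 11, 112782210 to 112787757), the Sertoli and cartilage factor of group E, had 0, 0, 0 and 2 counts in d6PGCLCs and 0, 8, 0 and 2 in PGCs. Most of its reads thus fell in PGC replicate 2. The ratio of the summed counts, 10 in PGCs to 2, was 4.92 (95% counting interval 1.05 to 46.2), and the adjusted p was 0.280, quasi-likelihood test. The fitted log2 fold change of *Sox9*, -2.01, was -0.26 without PGC replicate 2 and 2.33 without PGC replicates 2 and 4 together, and it was called in neither fit. PGC replicate 4, the library with Y-linked counts, had 2 reads of *Sox9*, as many as d6PGCLC replicate 4.

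**Figure D3:**
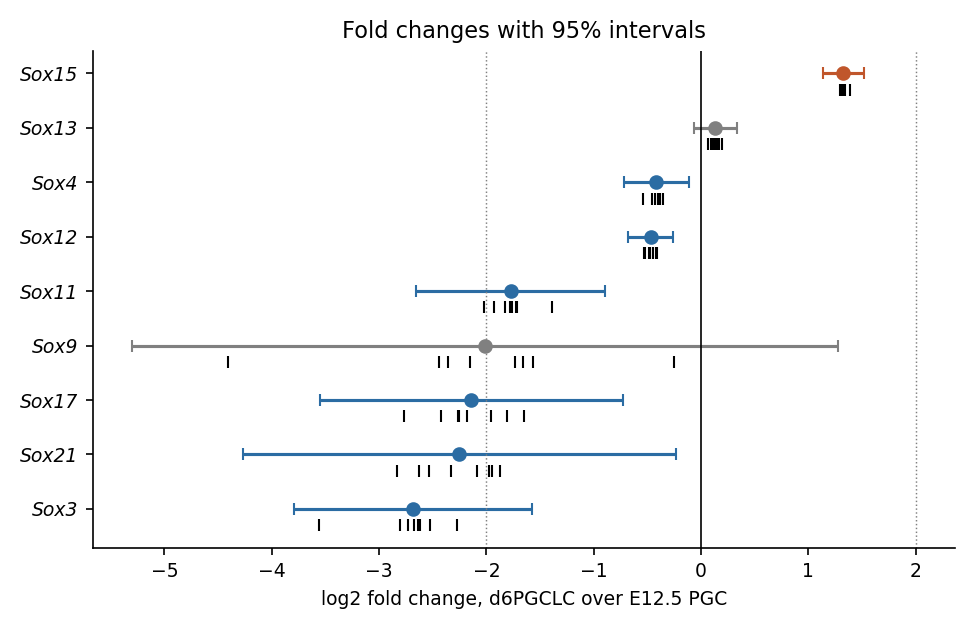
Log2 fold change (d6PGCLC over E12.5 PGC) of 9 genes with the 95% interval of the quasi-likelihood fit, and as black ticks the fold change with each library left out in turn; orange and blue mark genes called higher and lower at an adjusted p of at most 0.05, grey those not called, and dotted lines a log2 fold change of 2 in size. *Sox18* is left out because every library had at most 3 counts. The ticks of *Sox15* and *Sox12* lie close together, while those of *Sox9* reach from -4.40 to -0.26.

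Markers of the supporting cells of the gonad were lower in d6PGCLCs, as were *Sox3*, *Sox11*, *Sox17* and *Sox21*, while interstitial markers went both ways. Among all genes, 16.1% were called higher and 15.4% lower. Of 13 counted markers of female gonad supporting cells, 10 were called lower in d6PGCLCs and the other 3 were not called, and the list summed to between 4.07 and 9.70 CPM in d6PGCLCs and between 18.6 and 29.1 CPM in PGCs, with the highest sum in PGC replicate 2, the library that also held the most reads of blood markers. Their defining genes *Wt1* and *Gata4* were within the limit of 3 counts in every d6PGCLC library and above it in every PGC library, and both were called lower in d6PGCLCs. *Wt1* had 2, 2, 0 and 0 counts in d6PGCLCs and 12, 16, 9 and 5 in PGCs, *Gata4* had 2, 0, 1 and 1 in d6PGCLCs and 9, 7, 12 and 8 in PGCs, and *Irx3*, the gene with the most reads of the list, had a mean of 4.33 against 10.6 CPM. Gonad interstitial markers summed to between 7.72 and 31.2 CPM in d6PGCLCs and between 13.4 and 16.2 CPM in PGCs, with 1 of 14 called higher, 4 lower and 9 not called. The gene called higher, *Col1a1*, had 6, 38, 3 and 97 counts in d6PGCLCs, most of them in replicate 4, and 1, 4, 2 and 1 in PGCs, and its groups overlapped. Of those called lower, *Ptch1*, the receptor of hedgehog ligands, had the most reads (6.70 against 11.7 CPM). The part of such cells in the values of *Sox3*, *Sox9*, *Sox11*, *Sox17* and *Sox21* was not tested.

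Levels of different genes were compared per length, as RPKM on the deposited exonic length. In d6PGCLCs the order was *Sox15* (146 ± 5.15 RPKM, SD, n = 4), *Sox13* (55.0 ± 7.29), *Sox12* (21.2 ± 1.74) and *Sox4* (6.69 ± 1.14), each above the next in every library. *Sox3* followed at 0.197 ± 0.179 RPKM, and from there on each gene overlapped the next in its range over the libraries. In PGCs the same 4 genes led in the same order, with *Sox15* at 58.2 ± 4.87 RPKM, *Sox13* at 50.1 ± 2.30, *Sox12* at 29.4 ± 3.17 and *Sox4* at 8.91 ± 0.621, and their ranges again did not overlap. *Sox3* (1.38 ± 0.319 RPKM) stood clear of *Sox17* (0.359 ± 0.150) and *Sox11* (0.343 ± 0.191) in PGCs, whereas *Sox17*, *Sox11*, *Sox21*, *Sox18* and *Sox9* overlapped their neighbours. The exonic length used for *Sox4*, 2993 bases, is shorter than the GENCODE transcript (4795 bases), and that of *Sox15*, 1218 bases, is longer (861 bases). With the same counts on the GENCODE lengths, the level of *Sox4* would be lower and that of *Sox15* higher. Reads on these GENCODE transcripts were not counted. For *Sox13*, 4091 bases were used where its shortest coding transcript has 1842, and for *Sox17*, 3448 bases where it has 406. With the same counts on those transcripts both levels would be higher, but reads on those transcripts alone were not counted. The places of *Sox13* below *Sox15* and of *Sox17* below *Sox3* in PGCs thus rest on the deposited lengths. This length cancels in the folds between the groups, though the isoform behind it also sets which reads were counted.

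**Figure D4:**
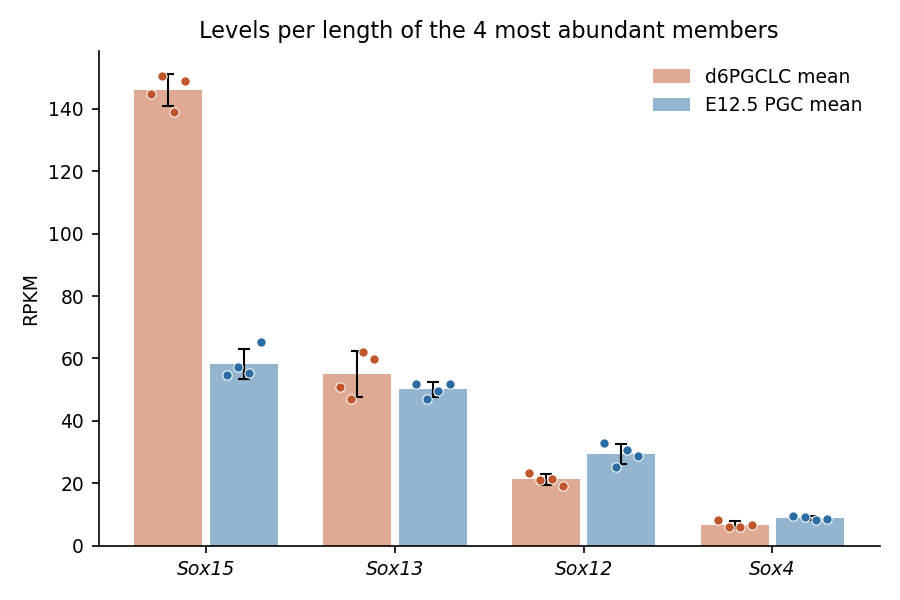
RPKM (CPM divided by the deposited exonic length in kilobases) of the 4 most abundant genes; bars give the mean, error bars the SD over 4 libraries and points the libraries. *Sox15* stands at 146 RPKM in d6PGCLCs and at 58.2 in PGCs, where it is close to *Sox13* at 50.1.

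The summed RPKM of the 10 genes was between 225 and 235 in d6PGCLCs and between 142 and 157 in PGCs. *Sox15*, *Sox13*, *Sox12* and *Sox4* together made up 99.8% of this sum in d6PGCLCs and 98.4% in PGCs. *Sox15* alone took between 60.7% and 66.9% in d6PGCLCs and between 36.2% and 41.7% in PGCs. The share of *Sox13* was 24.0% and 33.6%, and that of *Sox12* 9.26% and 19.7%. The level of *Sox15* was 2.70 times that of *Sox13* in d6PGCLCs (range over libraries 2.24 to 3.21) and 1.16 times in PGCs (1.06 to 1.26). These shares are tied to each other, since a rise of *Sox15* lowers all others.

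**Figure D5:**
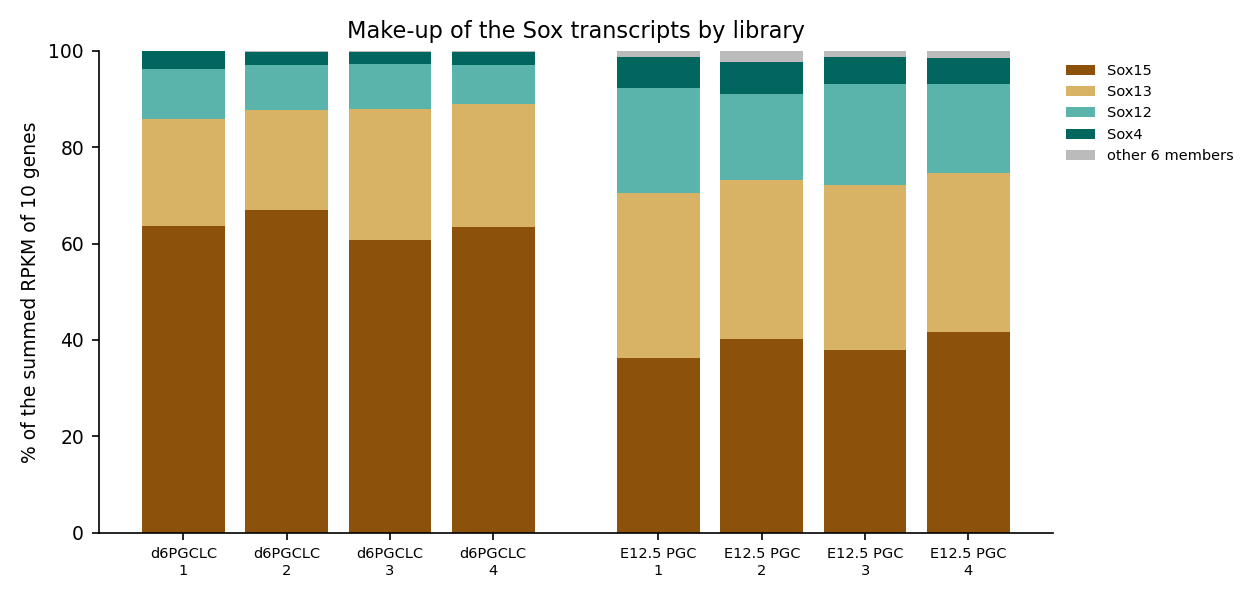
Share of the summed RPKM of the 10 genes held by *Sox15*, *Sox13*, *Sox12*, *Sox4* and the other 6 genes in each library. In every d6PGCLC library *Sox15* takes over 60% of the sum, and in every PGC library less than 42%.

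Among the other *Sox* genes, *Sox2* was higher in d6PGCLCs (630 ± 89.4 against 351 ± 24.1 CPM, log2 fold change 0.84, adjusted p = 5.47e-07, quasi-likelihood test). *Sox30*, a SoxH gene of germ cells, was lower, with 21 to 34 counts per library against 63 to 100 (log2 fold change -1.27, adjusted p = 0.000199, quasi-likelihood test). The other 8, *Sry*, *Sox1*, *Sox5*, *Sox6*, *Sox7*, *Sox8*, *Sox10* and *Sox14*, were not called. *Sox5* and *Sox7* had at most 30 counts in any library and were lower on average in d6PGCLCs, without passing the test (adjusted p = 0.0598 and 0.0504, quasi-likelihood test). *Sox1* and *Sox14* had at most 2 counts in any library. Of the TCF/LEF genes, which carry a related HMG box, *Tcf7l1*, a repressor of Wnt targets in pluripotent cells, was lower in d6PGCLCs (17.1 against 80.4 CPM, log2 fold change -2.23, adjusted p = 1.87e-10, quasi-likelihood test), as was *Tcf7* (-0.82). *Lef1* (191 against 193 CPM) and *Tcf7l2* were not called.

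Of 15 genes for partner factors of SOX proteins, 2 were called higher in d6PGCLCs, 3 lower and 10 not. The whole table had 16.1% of genes called higher and 15.4% lower. *Pou5f1*, which encodes OCT4, rose from 980 to 1632 CPM (log2 fold change 0.74) and *Tead1* from 202 to 361 CPM (0.84). *Pax6*, a partner of SOX2 in the lens, had 2.61 CPM in d6PGCLCs against 20.2 CPM in PGCs (log2 fold change -2.98, adjusted p = 3.00e-09, quasi-likelihood test). *Gli3* (-1.49) and *Pou3f1* (-1.48) were also lower.

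The programmes in which SOX proteins are known to act showed no common direction. Counts called in these lists, here and in the next paragraph, stand beside 16.1% of all genes called higher and 15.4% lower. In the endoderm list, 3 of 14 genes of the table were called higher in d6PGCLCs and 6 lower, and the median was -1.29 (log2). *Lama1* (2.89), *Dab2* (1.97) and *Cxcr4* (0.51) rose and *Cubn* fell by 2.58 on the log2 scale. Of the others called lower, *Foxa1*, *Foxa2*, *Gata4* and *Pdgfra* had between 1 and 8 counts in d6PGCLCs and between 15 and 56 in PGCs, each summed over 4 libraries. In the endothelial list 6 of 15 genes were called higher and 1 lower (median 0.22). *Flt1* (3.58), *Egfl7* (2.03) and *Cdh5* (1.39) rose, whereas *Efnb2*, an ephrin ligand, fell from 42.6 to 5.64 CPM. Other genes of the list were well counted in both groups. *Eng* (79.5 against 58.3 CPM) and *Cldn5* (9.96 against 5.55 CPM) were also called higher, and *Tek* (16.3 against 14.0 CPM) and *Esam* (7.63 against 7.09 CPM) were not called. *Kdr*, *Emcn* and *Vcam1* were nearly absent, with 4 against 8, 0 against 6 and 0 against 1 counts summed over 4 libraries. The summed endothelial list was higher in d6PGCLCs (770 to 891 CPM) than in PGCs (519 to 582 CPM), and most of it was *Pecam1*, which germ cells express (651 against 410 CPM).

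In the Sertoli list, 1 of 14 genes was called higher (*Aard*, 1.53) and 3 lower, *Cyp26b1*, *Gata4* and *Wt1*, and 10 were not called (median -0.04). *Gata4*, *Wt1* and *Nr5a1* also stand in the supporting cell list. *Amh*, which defines Sertoli cells, had at most 2 counts in any library. Of 12 cartilage matrix genes, targets of SOX9 in chondrocytes, *Col9a1* (-1.80), *Col2a1* (-1.59) and the scarcely counted *Matn1* were lower, *Matn3* was higher and 8 were not called. In the neural progenitor list, 3 of 12 genes were called lower, *Pax6*, *Nes* (-1.87) and *Hes5* (-0.83), and the median was -0.58. *Nes*, which encodes the intermediate filament nestin, had 33.0 CPM in d6PGCLCs against 121 CPM in PGCs. In the neuronal list tied to SoxC factors, 3 of 12 genes were called higher, with *Elavl3* (1.37) and *Mex3a* (0.60) among them, and 4 lower, with *Map2* (-1.18), *Ina* (-0.87) and *Stmn2* (-0.66) among them. In the list of PGC identity genes, 6 of 15 were called higher, with *Nanog* (1.25), *Prdm1* (1.21) and *Prdm14* (0.93) leading, and 6 lower, with *Dazl* (-5.07), *Ddx4* (-4.42) and *Mael* (-3.80) leading.

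Genes whose levels ran most like those of the 3 most abundant members were found by Pearson's correlation of log2(CPM + 0.5) over the 8 libraries, among the 8127 genes that averaged 100 counts or more. The values describe these libraries only, which share 2 groups and a common scaling. *Sox15* ran closest to *Cd164l2* (r = 0.999), *Ralb* (0.998) and *Cdh3* (0.998), all called higher in d6PGCLCs. *Sox12* ran closest to *Ttc21b* (0.993), *Gatad2a* (0.992) and *Trim37* (0.992), all called lower. *Sox13* ran closest to *Atp6v1b2* (0.976), *2610008E11Rik* (0.971) and *Nufip2* (0.956), none of them called.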

How the data were processed

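RNA-seq of 4 d6PGCLC and 4 E12.5 PGC pools, prepared in independent experiments, was analysed from the deposited counts, which the authors had not normalized. Per the methods of the study and the labels, single-end stranded reads were aligned with STAR to GRCm38, a transcript isoform per gene was chosen at random, genes with overlapping promoters were thinned at random, and uniquely mapped reads were counted on its exons with QuasR. Strand use in counting is not given in the sources used here. Entrez identifiers were matched to RefSeq symbols for 21907 of 21950 genes. Within each group all pairs of libraries differed by more than counting alone would give (chi-square over its degrees of freedom, 3.35 to 22.1).

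Counts were fitted with edgeR 4.0.16 (R 4.3.3, glmQLFit and glmQLFTest, TMM, prior count 0.125, no filter), with cell type as the only term, and p-values were adjusted over all genes. All folds divide d6PGCLC by E12.5 PGC, with standard errors from the quasi-likelihood posterior variance. In the study, edgeR's likelihood ratio test was used. Permutation tests used log2(CPM + 0.5) of a single gene. Ratios of summed counts used the totals of counted reads, with an exact binomial interval. RPKM used the deposited exonic lengths. The script was tested on simulated counts. The alternatives tried were DESeq2 1.42.0, the likelihood ratio test, other scalings, 2 filters on low counts, a prior count of 2, a replicate block, a loess offset on exonic length (span 0.5) and leaving out each library. A fit without E12.5 PGC replicates 2 and 4 together was added after the data had been seen.

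The members and the gene lists were chosen with earlier results of these data known. The text names the 10 members, the other *Sox* genes, of each list the called genes with the largest change (up to 3 in each direction, averaging 20 counts or more) and markers at or near 0, and the 3 genes most correlated with each of the 3 most abundant members. Others in a count of at most 5 were named after their values were seen. Protein sequences were not used here. HMG boxes were compared as coding sequence of GENCODE M21 transcripts instead. Boxes were compared for 9 of the 10 members, without *Sox12*, so likeness within SoxC covers *Sox4* and *Sox11* alone, and some results are not reported here. *Gata6*, *Zic2*, *Six3*, *Foxl2*, *Hba-a1*, *Hbb-bt* and *Alas2* of the lists were not analysed here.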

Additional observations from a re-analysis of the deposited data

Results flagged for a closer look

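In a pair of cases a single library stood apart from the other 3 of its group, out of 20 sets of 4 values examined. Chance gives about 1 in 20 for continuous values, but not for counts mostly at 0. There, 1 library with reads beside 3 at 0 is always flagged. *Sox9* was at 0.242 CPM in d6PGCLC replicate 4, from 2 counts, and at 0 in the other d6PGCLC libraries. *Sox18* was at 0.305 CPM in d6PGCLC replicate 2, from 3 counts, and at 0 in the others. Both values are within the limit of 3 counts.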

How the results depend on the processing

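Over 19 alternative fits, 163 of 182 fold changes of single genes kept their direction and their side of the threshold, 18 kept their direction and lost the call, and 1 changed sign. *Sox15*, *Sox12* and *Sox3* kept their calls in all 19 fits. The number of the 10 genes called, 7 at an adjusted p of at most 0.05, ranged from 5 to 6 with each library left out, and was 3 without PGC replicates 2 and 4 together, a fit chosen after the data had been seen. Over all genes that adjusted p called 6919 in the reported fit and 5978 to 7066 with each library left out. Without PGC replicates 2 and 4 together it called 5782. The number called with the fold threshold, 3, ranged from 1 to 4 with each library left out. It was 1 with either filter on low counts, which removed *Sox17* and *Sox21* among others, 1 with a prior count of 2 and 1 without PGC replicates 2 and 4. Over all genes the same threshold called 1452 in the reported fit, 934 with a CPM above 1 in at least 3 samples, 847 with filterByExpr and 832 with a prior count of 2. *Sox9*, never called, had a log2 fold change of 2.33 without PGC replicates 2 and 4 (adjusted p = 0.630, edgeR's quasi-likelihood test), where 2 counts in d6PGCLC replicate 4 were all its reads. The causes of the other changes were not tested. Whether libraries with the same number pair was not clear. Their deviations from the group means correlated at 0.302, 0.114, -0.038 and 0.041 for replicates 1 to 4. Of the d6PGCLC libraries, replicates 1 and 4 correlated best with their own number. Replicate 2 correlated better with PGC replicate 4 (0.130), and replicate 3 with PGC replicate 2 (0.143). With the replicate block 6 genes were called, and 2 with the fold threshold, with *Sox21* lost from both. Depth limits *Sox9*, *Sox18* and *Sox21*, which had at most 9 counts in any library.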
